A study of Mus musculus with 2 samples.

Results

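The miR-29 family was measured in the mouse basal cell carcinoma (BCC) line G2N2C, transfected with the interfering oligonucleotide Stealth-D3 or with its control, Stealth-ctr. D3 is the type 3 deiodinase, encoded by Dio3, the enzyme that inactivates thyroid hormone. The medium of both groups was low in calcium and held 8% serum freed of calcium, with keratinocyte growth factor, and the cells were taken 48 h later. Each condition was a pool of RNA from 3 experiments, and this pair was compared on 2 arrays of locked nucleic acid probes, each read in 2 colours. The Stealth-D3 pool carried Cy3 and the Stealth-ctr pool Cy5 on array 1, and the dyes were exchanged on array 2. The arrays therefore hold 1 replicate per condition, no p-value between the conditions was computed, and every SD below is technical, taken over both arrays. Pooling also removed any measure of the spread between experiments, and a bulk measurement cannot tell fewer cells of a type from less RNA per cell. The Dio3 transcript was not analysed here, so whether and how far D3 itself fell is unknown. Technical precision is limited by the number of arrays, and any reading beyond these pools by the 1 pool per condition.

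The members were chosen by name: every mouse miRNA probe, mismatch probes left out, whose name stem was miR-29a, miR-29b or miR-29c, on either arm. There were 6 such probes among 422 for mouse miRNAs: mmu-miR-29a, mmu-miR-29b, mmu-miR-29c, mmu-miR-29a\*, mmu-miR-29b\* and mmu-miR-29c\*. The asterisk is the array's older notation for the less abundant arm of a hairpin. All 6 had a fold change in the authors' deposited table and so entered the comparison with 373 mouse miRNAs, for which duplicate probes were averaged. No other probe of the table carried a miR-29 name.

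The family is best known as a brake on the extracellular matrix. Its 3p arms pair through their seed with the messages of many fibrillar and basement membrane collagens, elastin and fibrillin, and lower them. They also target the DNA methyltransferases Dnmt3a and Dnmt3b and the survival factor Mcl1. In fibroblasts, transforming growth factor beta lowers miR-29, and loss of miR-29 goes with fibrosis in heart, lung, liver and skin.

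The 4 hairpins of 2 clusters give rise to the family, and they are shown because each carries the 2 arms that the array probes. In the RefSeq annotation of GRCm38.p6, Mir29a lies at chr6:31062660-31062747 and Mir29b-1 at chr6:31063023-31063093, both on the minus strand with 275 bases between them. Mir29b-2 lies at chr1:195037040-195037120 and Mir29c at chr1:195037547-195037634, both on the plus strand with 426 bases between them. The mature arms are in capitals, the 5p arm first.
Mir29a: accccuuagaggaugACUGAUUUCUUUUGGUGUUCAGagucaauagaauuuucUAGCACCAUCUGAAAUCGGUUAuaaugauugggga
Mir29b-1: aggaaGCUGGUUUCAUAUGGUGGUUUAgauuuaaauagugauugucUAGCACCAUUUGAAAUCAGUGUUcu
Mir29b-2: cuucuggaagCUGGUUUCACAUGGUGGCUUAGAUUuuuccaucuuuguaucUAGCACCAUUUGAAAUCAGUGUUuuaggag
Mir29c: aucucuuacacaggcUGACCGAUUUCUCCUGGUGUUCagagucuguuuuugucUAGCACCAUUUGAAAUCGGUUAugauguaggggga

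The 3p arms, which the array names miR-29a, miR-29b and miR-29c, are shown with the seed, bases 2 to 8, in capitals, because they share it.
miR-29a-3p: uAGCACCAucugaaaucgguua
miR-29b-3p: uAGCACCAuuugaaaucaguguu
miR-29c-3p: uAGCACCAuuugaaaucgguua
The seed AGCACCA was held by these 3 of the 1679 mature mouse miRNA names in the RefSeq table. Counted from the 5′ end, miR-29a-3p and miR-29c-3p were identical at 21 of 22 positions, the difference being C10U from miR-29a to miR-29c. From miR-29c-3p to miR-29b-3p the differences over the same 22 positions were G18A, U21G and A22U. The mature miR-29b-3p is the same from both of its hairpins, so its probe reads the 2 clusters together. Whether the probes for these near-identical miRNAs cross-hybridise was not tested.

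The 5p arms carry other seeds, again in capitals, and are shown because the family's seed does not extend to them.
miR-29a-5p: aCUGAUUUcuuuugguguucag
miR-29c-5p: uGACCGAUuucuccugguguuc
miR-29b-1-5p: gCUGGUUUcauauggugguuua
miR-29b-2-5p: cUGGUUUCacaugguggcuuagauu
The first and second correspond to the array's miR-29a\* and miR-29c\*. The name miR-29b\* matches both of the others, and the sources used here do not say which of them its probe was designed for.

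Values below are log2 ratios between the pools from the authors' deposited value table, taken as log2. Array 1 was given the opposite sign, so that both arrays read the same pool over the same pool, and the arrays were averaged. Which dye was the numerator is not stated in the sources used here, so the values have no settled direction. A positive sign points the way of miR-21, the mouse miRNA farthest from 0 with 3.60 ± 0.73 (technical SD, 2 arrays), and the authors' deposited table uses this sign too. If the ratios are red over green, it means more in the Stealth-D3 pool; if green over red, more in the Stealth-ctr pool.

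None of the 6 miR-29 probes passed the rule of size, which asks for a mean of at least 1.5-fold, or 0.585 on the log2 scale, and for arrays that share their sign. Of all 373 mouse miRNAs, 12.1% passed this rule and 8.85% passed it on the side of miR-21. The 6 means all had the sign of miR-21, between 0.11 and 0.51, or 1.08-fold to 1.43-fold, and the family median was 0.27. The median of all mouse miRNAs lay on the same side, at 0.08, and 60.1% of them had a mean above 0. At an average log2 intensity of 9 or more, where miR-29a and miR-29b lie, the median of 63 mouse miRNAs was 0.28, with 71.4% above 0. Below it, where the other members lie, the median of 310 was 0.06, with 57.7% above 0. Among the means of all 373, from low to high, the family ran from percentile 58.2 for miR-29c\* to percentile 87.4 for miR-29a.

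Of the 3p arms, miR-29a had the largest mean. It was -0.54 on array 1 and 1.56 on array 2, with a mean of 0.51 ± 1.49. The arrays thus gave opposite signs, and the SD was 2.91 times the mean. miR-29b behaved alike with -0.09 and 0.74, and a mean of 0.32 ± 0.59. miR-29c, which shares all but 1 base with miR-29a, had -0.02 and 0.25, and a mean of 0.12 ± 0.19. For all 3 of these arms array 1 was negative and array 2 positive.

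The 5p arms, the less abundant products of the same hairpins, were all dim, and their technical SDs, like that of miR-29c, were smaller than those of the bright miR-29a and miR-29b. miR-29b\* had 0.53 and 0.19 on arrays 1 and 2, and a mean of 0.36 ± 0.24. miR-29a\* had 0.26 and 0.19, with a mean of 0.22 ± 0.05, the smallest technical SD of the 6. Only these 2 members kept 1 sign over the arrays. miR-29c\* had 0.25 and -0.03, and a mean of 0.11 ± 0.20. Both arrays shared their sign for 2 of 6 in the family and for 45.3% of all mouse miRNAs.

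**Figure D1:**
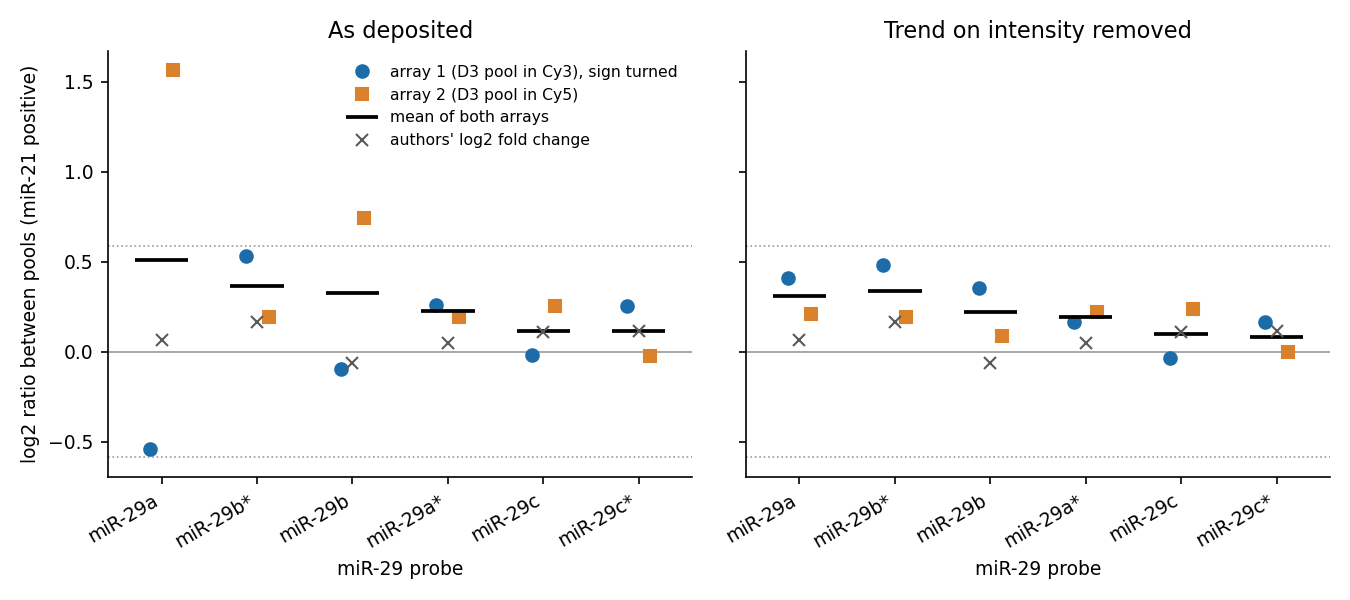
The log2 ratio between the pools of each miR-29 probe, signed so that miR-21 is positive, on array 1 (circles, sign turned) and array 2 (squares), with the mean of both (bars) and the log2 fold change of the authors' deposited table (crosses), as deposited on the left and with the trend on intensity removed on the right. Dotted lines mark 1.5-fold. The arrays of miR-29a lie at -0.54 and 1.56 as deposited and at 0.41 and 0.21 with the trend removed.

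In the order of the means, miR-29a was followed by miR-29b\*, miR-29b, miR-29a\*, miR-29c and miR-29c\*. No neighbours in this order differed by more than the technical SD of their difference. From the top to the bottom the difference was 0.40 ± 1.68, so the order was not resolved.

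The probes differed in brightness, which is no measure of one miRNA's amount against another's. The average log2 intensity in the authors' deposited table was 10.9 for miR-29a and 9.32 for miR-29b. The other 4 were dim, with 7.05 for miR-29c, 7.0 for miR-29b\*, 6.85 for miR-29c\* and 6.81 for miR-29a\*. Probes to which the authors' table gives no fold change reached 6.99, so miR-29c\* and miR-29a\* were no brighter than some of those. miR-29b\* and miR-29c were barely brighter than 6.99. Ratios near 0 of the dim probes do not show that the levels were alike.

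The deposited ratios rose with brightness on both arrays before any sign was turned, with a Pearson correlation across 1677 probes, most of them for near homologues of other species and none independent replicates, of 0.55 on array 1 and 0.57 on array 2. The bright members followed this. In the dye order of the file miR-29a had 0.54 and 1.56, where the smooth trend at its intensity stood at 0.95 and 1.35. miR-29b had 0.09 and 0.74, where the trend stood at 0.45 and 0.66. Since the dyes were exchanged, the part of a ratio that is alike on both arrays in dye order cancels in their mean. Among the 63 mouse miRNAs at an intensity of 9 or more the median technical SD was 1.10, against 0.28 among the 310 below it.

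**Figure D2:**
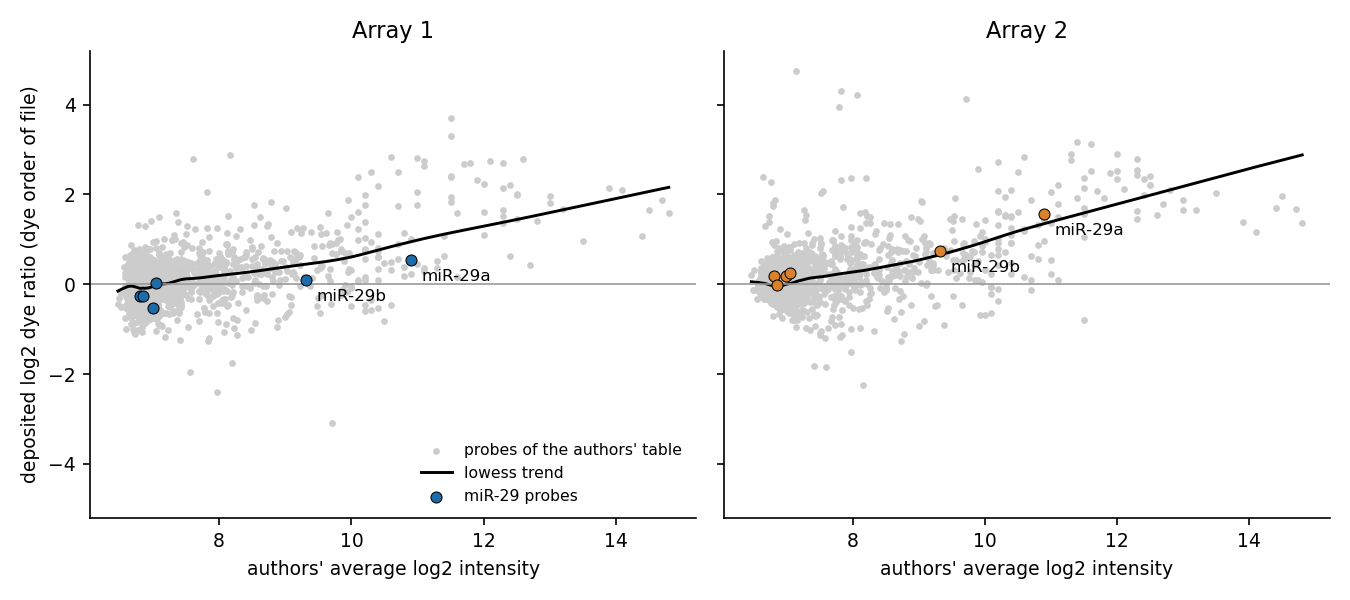
The deposited log2 dye ratio, before any sign was turned, against the authors' average log2 intensity on array 1 (left) and array 2 (right), for the 1677 probes with a fold change (grey) and the 6 miR-29 probes (coloured), with the lowess trend (black). miR-29a and miR-29b lie below the trend on array 1 and above it on array 2, at the intensities where the trend has left 0.

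With this trend removed from each array, the bright members had the same sign on both arrays. miR-29a then had 0.41 and 0.21, with a mean of 0.31 ± 0.14. miR-29b had 0.35 and 0.09, with a mean of 0.22 ± 0.19. Both had the sign of miR-21, and the technical SD of miR-29a was 0.14 in place of 1.49.

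The dim members moved little. miR-29b\* had 0.48 and 0.19 with the trend removed and the highest mean of the family, 0.34 ± 0.21. miR-29a\* had 0.17 and 0.22, with a mean of 0.19 ± 0.04. miR-29c had -0.04 and 0.24, and miR-29c\* 0.17 and 0.00, so their means of 0.10 ± 0.19 and 0.08 ± 0.12 did not stand clear of 0.

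After this step 4 of the 6 members had the same sign on both arrays, against 50.7% of all mouse miRNAs. Among the 63 mouse miRNAs at an intensity of 9 or more, this share rose from 34.9% to 63.5% with the step. Their median technical SD fell from 1.10 to 0.44, so the gain in miR-29a and miR-29b was shared by bright miRNAs in general. The family median was 0.21, with 0.26 on array 1 and 0.20 on array 2, while the median of all mouse miRNAs was 0.02. Again none of the 6 reached 1.5-fold, a size that 13.4% of all mouse miRNAs passed with the same sign. The difference between the top and the bottom of the family was 0.25 ± 0.09, from miR-29b\* to miR-29c\*. Among neighbours, miR-29a and miR-29b differed by 0.09 ± 0.05 and the others by less than their SD.

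At 1.2-fold, or 0.263 on the log2 scale, the dim miR-29b\* passed as deposited, 1 of 6 members against 26.5% of all mouse miRNAs. With the trend removed miR-29a and miR-29b\* passed this lower threshold, 2 of 6 members against 32.2%. The second of these settings was chosen after seeing the data. On single arrays at 1.5-fold, array 1 gave none of 6 against 22.8% of all, and array 2 gave miR-29a and miR-29b, 2 of 6 against 27.9%.

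**Figure D3:**
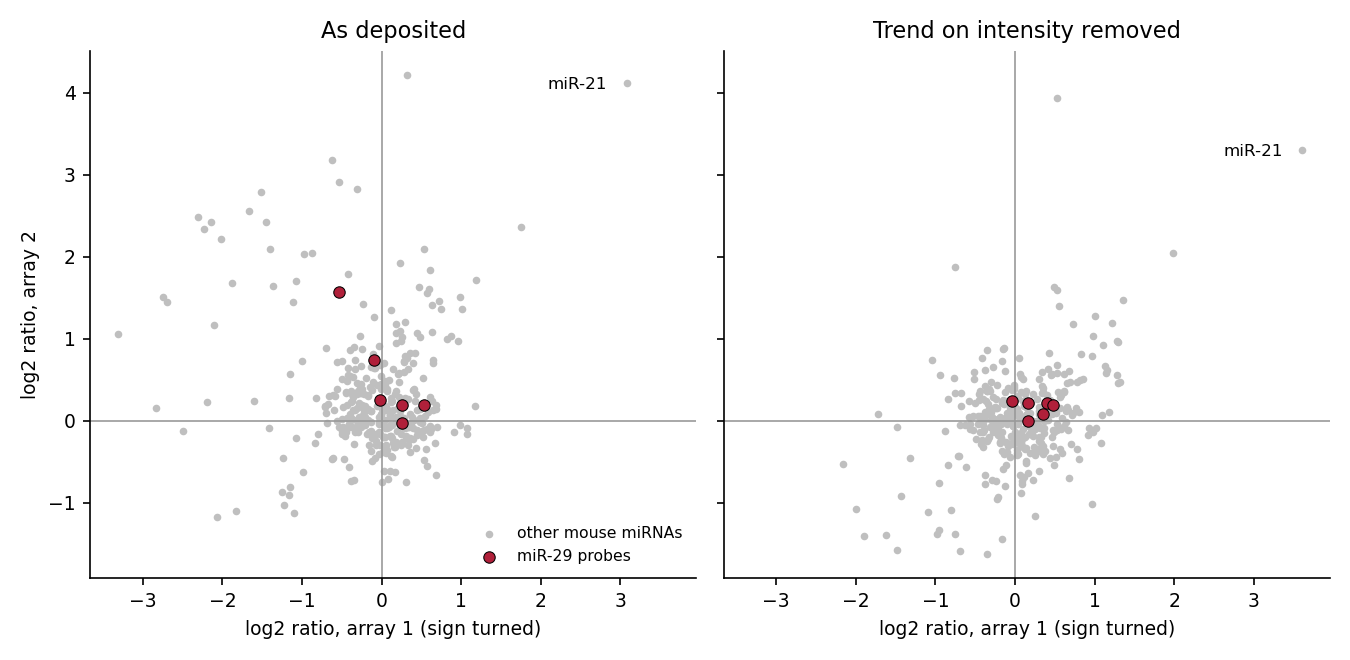
The log2 ratio on array 2 against that on array 1 (sign turned) for the 6 miR-29 probes (red) and the other mouse miRNAs (grey), as deposited on the left and with the trend on intensity removed on the right. With the trend removed the 6 probes lie close together, from -0.04 to 0.48 on array 1 and from 0.00 to 0.24 on array 2, within the main cloud and far from miR-21.

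The authors' deposited table gives smaller differences than the means as deposited, except that miR-29c and miR-29c\* are nearly alike in both. Its log2 fold change is 0.07 for miR-29a, -0.06 for miR-29b, 0.11 for miR-29c, 0.05 for miR-29a\*, 0.17 for miR-29b\* and 0.11 for miR-29c\*. In the authors' deposited table miR-29b is thus the only member with the other sign, and miR-29b\* again has the largest value. The family median there is 0.09, against -0.02 for all mouse miRNAs, and none of the 6 reaches 1.5-fold, against 9.38% of all. The unadjusted p-values of the authors' deposited table run from 0.255 to 0.729 for the 6 probes. Their replicates are not stated in the sources used here.

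The 5 mouse miRNAs whose values lay nearest to those of miR-29a, the brightest member, were found by the distance over both arrays and the average intensity. They were miR-720 at a distance of 0.34, miR-19b at 0.72, let-7i at 0.74, miR-298 at 1.13 and miR-16 at 1.17. miR-720, now regarded as a transfer RNA fragment, had -0.23 and 1.42 on arrays 1 and 2 against -0.54 and 1.56 for miR-29a. All 5 were negative on array 1 and positive on array 2. With the trend removed their means ran from -0.49 for miR-16 to 0.40 for miR-720, with let-7i also at 0.40, against 0.31 for miR-29a. miR-720 and let-7i thus stayed close to miR-29a in their means, while miR-19b with 0.04, miR-298 with 0.02 and miR-16 lay lower.

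Other miRNAs that act on collagen and fibrosis lay on both sides. Of 18 measured miRNAs in a list of others that target collagens or oppose fibrosis, 3 passed the rule with the sign of miR-21 and 3 with the other sign, against 8.85% and 3.22% of all mouse miRNAs, and the median was 0.14 against 0.08 for all. On the side of miR-21 were miR-26a with 1.10 ± 0.71, miR-30c with 1.08 ± 1.2 and miR-101a with 0.68 ± 0.04. Opposite were miR-200b at -0.81 ± 0.25, miR-200c at -0.98 ± 0.24 and, lowest, miR-141 at -1.03 ± 0.17. With the trend removed the SDs of these last were larger, with miR-200b at -0.99 ± 0.90, miR-200c at -1.07 ± 0.44 and miR-141 at -1.14 ± 0.64. On the side of miR-21 the SDs of miR-26a and miR-30c became smaller, at 0.51 and 0.32, and that of miR-101a was 0.05. miR-30c lowers connective tissue growth factor, and the miR-200 members hold the epithelial state by repressing Zeb factors. The list's median was -0.03 with the trend removed.

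Of 5 measured pro-fibrotic miRNAs, miR-21 alone passed, against 8.85% of all mouse miRNAs on that side. Since miR-21 is the mouse miRNA farthest from 0 and sets the sign, its passing says nothing about the list. The median of the 5 was 0.11, against 0.08 for all mouse miRNAs. The lowest of them was miR-192 with -0.02 ± 0.09, and miR-155 had 0.39 ± 0.74. Of 6 measured miRNAs that target DNA methyltransferases, as miR-29 does, 3 passed, each with the sign of miR-21, against 8.85% of all mouse miRNAs on that side. They were miR-143 with 2.06 ± 0.43, miR-26a and miR-101a, the last 2 shared with the collagen list. The lowest was miR-148a, which targets Dnmt1 and Dnmt3b, with -0.54 ± 0.11, while its relative miR-148b had 0.52. The median of this list was 0.60, against 0.08 for all mouse miRNAs, and 0.37 in the authors' deposited table.

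**Figure D4:**
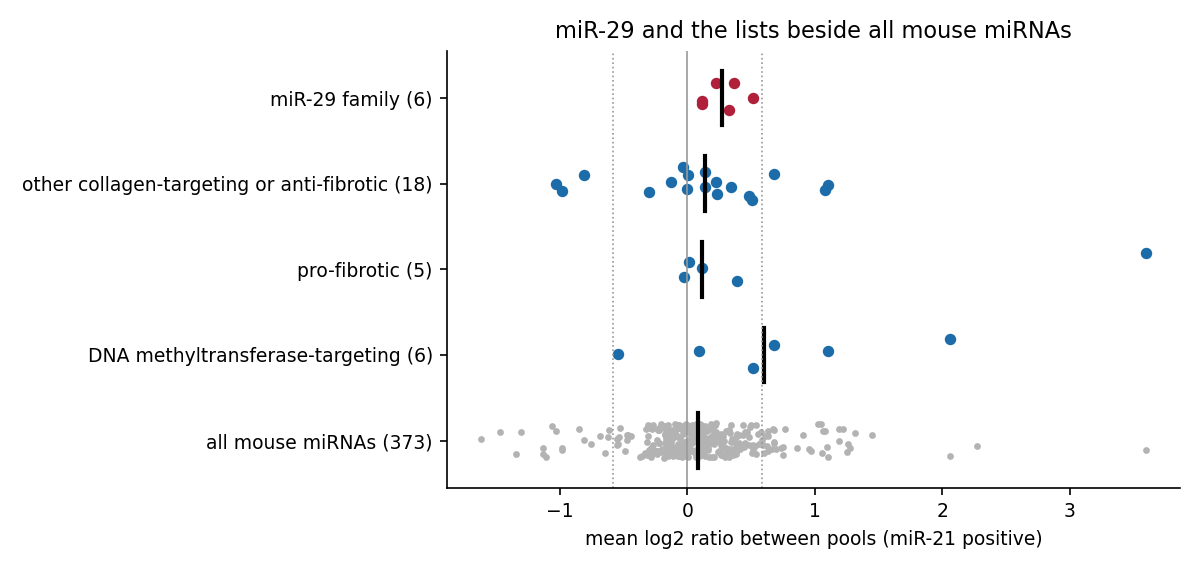
The mean log2 ratio between the pools, signed so that miR-21 is positive, of each miRNA in the miR-29 family, in 3 lists of related function and among all 373 mouse miRNAs, with the number measured in brackets, medians as black bars and 1.5-fold as dotted lines. The miR-29 points lie between 0.11 and 0.51, inside the dotted lines.

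Of the markers of the labelled cell type, miR-205 was bright at 11.9, while miR-203 at 7.16 stood at the median intensity of the mouse miRNAs. All 7 keratinocyte markers were brighter than 6.99, and so were 4 of 5 fibroblast and smooth muscle markers, 2 of 4 muscle markers, 2 of 5 blood cell markers and 1 of 2 endothelial markers. Most mouse miRNAs were brighter than 6.99 too, as their median intensity was 7.16, so these counts do not tell the cell types apart. The keratinocyte markers had a median of -0.33, and 3 of 7 passed the rule opposite to miR-21, against 3.22% of all mouse miRNAs on that side. These 3 are the miR-200 members given above, already counted in the collagen list. The miR-200 members miR-200a, at -0.30 ± 0.56, and miR-429, at -0.03 ± 0.31, did not pass. miR-205 had 0.09 ± 3.39, from arrays of opposite sign, and miR-203 had -0.33 ± 0.24. The medians of the miR-29 family and of these markers thus had different signs, and most of these markers are miR-200 members.

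miR-29 is also abundant in fibroblasts and muscle. Of 5 measured fibroblast and smooth muscle markers, miR-143 passed on the side of miR-21, against 8.85% of all mouse miRNAs on that side. The median was 0.11, against 0.08 for all mouse miRNAs, and the lowest was miR-199a-5p with 0.01. The medians were 0.10 for 4 muscle markers, with miR-206 at -0.08 and miR-133b at 0.22 as the ends, and 0.06 for 5 blood cell markers, with miR-142-3p at -0.08 and miR-223 at 0.58 as the ends. That of the endothelial markers miR-126-3p (-0.17) and miR-126-5p (0.14) was -0.02. None of these last 3 lists held a miRNA past the rule, which 12.1% of all mouse miRNAs passed on either side. With so few members per list, such counts do not set the lists apart from all mouse miRNAs. The part of other cells in the miR-29 values was not tested.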

How the data were processed

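The authors' deposited value table has, for each array, 1 log2 dye ratio at 2244 features. Its log base, centring and dye order are not stated; the column medians were 0.039 and 0.040. Log2 was taken because the averaged value followed the authors' fold change (r = 0.83 over 1677 probes, slope 1.24 at intensities from 9 to 12). The second table that the authors deposited lists 2101 probes. Per the file headers, its columns are the log2 fold change, the average log2 intensity, the p-value before adjustment and the fold change with a sign, which is a score here; how these were made is not given in the sources used here. RNA was extracted with Trizol and cleaned on a column, per the labels' protocols.

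The sign of array 1 was exchanged, and the mean of the arrays served as 1 technical replicate. Used were 376 probes for 373 mouse miRNAs; 46 mouse probes without a fold change, 1586 probes for near homologues and mismatch probes were left out of the comparison. The trend was a lowess fit (span 0.3) of each array on average intensity over all 1677 probes with a fold change, of which 1230 were near homologues and 376 mouse miRNA probes. The members and lists were chosen with earlier results of these data known. By rule, the text names all members, miR-21, miR-203, miR-205, the 5 miRNAs nearest to the brightest member, and the ends and passing members of each list. Named besides are miR-155, miR-148b, miR-200a and miR-429. miR-7, miR-101b, miR-26b, miR-199a-3p and miR-199b had no probe of exactly that name among those used, and miR-451 had no fold change. The turning, the rule and the trend were tested on simulated data. Those data were built with the trend and turning used here and with changes larger than any miR-29 mean. They therefore say nothing about differences as small as those of miR-29. Python 3.11.15, NumPy 2.4.6, pandas 2.3.3, statsmodels 0.14.6 and matplotlib 3.10.9 were used. Sequences are RefSeq's (GRCm38.p6); 5 of 6 array names matched 1 mature sequence.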

Additional observations from a re-analysis of the deposited data

How the results depend on the processing

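No paired analysis was possible because the arrays share 1 pair of pools. The number of miR-29 members past the rule of size was 0 as deposited, with each array centred on its median, with the trend removed, in the authors' deposited table, among brighter miRNAs, without a filter on low values, at 2-fold and without the demand on signs. It was 1 at 1.2-fold, 2 at 1.2-fold with the trend removed, and from 0 to 2 on single arrays. With 0 as deposited, the counts at 2-fold, among brighter miRNAs and without a filter on low values could only be 0. The family median of 0.27 ran from 0.12 to 0.22 on single arrays. It was 0.088 in the authors' deposited table, for which the cause was not tested, and 0.42 over the 2 brighter members, where fewer members enter. It was 0.20 with centred arrays, 0.21 with the trend removed, and 0.32 without the names with an asterisk. The column medians of 0.039 and 0.040 nearly cancel once array 1 is turned, so the centring used other medians, not given here. Of 38 member values under the alternatives, 33 were above 0. The other 5 were miR-29a, miR-29b and miR-29c on array 1, miR-29c\* on array 2 and miR-29b in the authors' deposited table. The 6 values without a filter on low values and the 2 among brighter miRNAs repeat the main values, so their signs were fixed. Adding near homologues was not run, because those probes carry no miRNA name in the table. Dim signal limits miR-29c and the 5p arms, and the trend on intensity limits miR-29a and miR-29b.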

Other observations

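miR-29b had 0.32 in the mean of the value table and -0.06 in the authors' deposited table. Such a difference in sign was found for 99 of 373 mouse miRNAs, or 26.5%.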
